A study of Solanum pimpinellifolium with 72 samples.

Results

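The genes described here are those of tomato chromosome 2 whose annotation ids run from Solyc02g083000 to Solyc02g084999, the stretch that surrounds SlWUS. A gene of this stretch was included where it reached 1 RPKM (reads per kilobase of transcript and per M mapped reads, where M stands for mega) in at least 4 of 72 libraries, and SlWUS (Solyc02g083950) and the floral organ gene TM6 (Solyc02g084630) were set aside. Of 197 ids in the stretch, 164 genes were members by this rule, 79 from Solyc02g083000 on and 85 from Solyc02g084000 on, and 31 ids did not reach the level. They were 164 of the 20577 genes of the whole table that passed the same filter. Genes were taken in the order of their ids, because the sources used here gave no positions for them, and the ids follow the order of the genes on the chromosome.

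SlWUS encodes a homeobox transcription factor that keeps stem cells in the shoot and floral meristems, and SlCLV3 encodes a secreted peptide whose signal restrains it. More stem cells in the floral meristem give more carpels, which become the locules of the fruit. The lc allele lies just beyond the coding part of SlWUS, so in a line made by backcrossing, the genes on either side of SlWUS can come from the donor parent together with it. Such neighbours are expressed for many different tasks in the flower, among them pathogenesis-related proteins, flavonoid and lignin enzymes, cell wall peroxidases and transcription factors.

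All plants shared the background of the wild species Solanum pimpinellifolium LA1589, and the groups were lc, lc/fas, fas, RNAi-SlCLV3, HC2 and WT. The lc, fas and lc/fas plants were near-isogenic lines of a single backcross family with alleles from cultivated tomato, where lc is a pair of base changes near SlWUS and fas is an inversion that breaks the SlCLV3 promoter. RNAi-SlCLV3 plants carried a hairpin against SlCLV3 behind the strong CaMV 35S promoter, and the labels do not say which transgenic line a library came from. HC2 plants were fas plants that also carried a transgenic genomic copy of SlCLV3. Whole mRNA was sequenced at 3 stages with 4 replicates in each of the 18 groups. The early stage was a pool of meristems of the inflorescence and the flower and of buds at 2 dpi (days post floral initiation), and the later stages were buds at 4dpi and at 6dpi. For WT and RNAi-SlCLV3 the study describes replicates as weekly collections, which may have shared plants. It does not describe the collections behind the libraries of the other genotypes, so p-values measure the spread between replicates that may not be independent plants.

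Read totals recovered from the table ran from 2.93 to 58.6 M per library (median 19.1 M), and 7 libraries lay below 10 M. The median member had 314.5 reads in its median library, and 24 members had fewer than 20. The mean level of the members ran from 0.334 to 333 RPKM with a median of 14.5, with 16 members below 1 RPKM and 23 at 50 RPKM or more. The highest mean belonged to Solyc02g084240, which the study pairs with the Arabidopsis linker histone HIS1-3. The stage labels were checked with meristem and organ genes: between the early stage and 4dpi, SlWUS fell by 2.09 on the log2 scale and the petal and stamen gene TAP3 rose by 4.94 (limma, adjusted p = 6.55e-26 and 5.75e-37). The meristem genes SlCLV3 and TKN2 fell by 1.55 and 1.16. Among the other organ genes of the list, TAG1 and TM6 rose by 4.03 and 1.52, but MC fell by 0.55. Genes of inflorescence and flower identity were split, with AN higher by 1.33 and S and FA lower by 2.62 and 0.42. The samples held whole buds, in which fewer cells of a type and less RNA per cell cannot be told apart.

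SlCLV3 (Solyc11g071380), the gene that the hairpin targets, that fas alters and that HC2 adds, was looked at as a check of the labels. It ran from 0.202 to 4.60 RPKM (median 1.56) in RNAi-SlCLV3, against 0.421 to 10.5 RPKM (median 1.29) in WT. At the early stage it had 2.24, 4.60, 4.58 and 4.16 RPKM in RNAi-SlCLV3, against 6.97, 10.5, 7.83 and 4.66 RPKM in WT, without overlap, and at 4dpi and 6dpi the groups overlapped. Over the stages the difference was -0.20 ± 0.14 (SE, on the scale of log2(RPKM + 1), limma, adjusted p = 0.346), so the test over all stages did not show a lower level in these libraries. Reads of the hairpin, which was built from a piece of the gene, and of the gene itself cannot be told apart. SlCLV3 ran from 0.222 to 5.68 RPKM (median 1.30) in HC2, against 0.403 to 6.44 RPKM (median 0.828) in fas, a difference of 0.13 ± 0.14 (adjusted p = 0.753). At the early stage fas had 4.19, 6.44, 5.19 and 4.10 RPKM, lower than the WT library of the same number each time, with overlapping ranges. At 4dpi and 6dpi such pairs went both ways. Over the stages the difference of fas from WT was -0.32 ± 0.14 (adjusted p = 0.585), so none of these 3 comparisons of SlCLV3 was called. SlCLV3 was called higher with the lc allele averaged over lc against WT and lc/fas against fas (0.366 ± 0.096, limma, adjusted p = 0.0405). Neither was called on its own, at 0.485 ± 0.135 in lc against WT (adjusted p = 0.103) and 0.247 ± 0.135 in lc/fas against fas.

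Members differed with the lc allele more often than other genes did, in both backgrounds and in the same direction. Differences are given on the scale of log2(RPKM + 1), averaged over the 3 stages, with a standard error (SE) and a p-value adjusted over all 20577 genes. This scale understates the change of genes with low values. In lc against WT, 14 of 164 members were called at an adjusted p below 0.05 (8.54%), against 0.539% of all tested genes. Of these, 10 were higher in lc (0.369% of all tested genes) and 4 lower (0.17%). In lc/fas against fas, which used other libraries, 16 members were called (9.76%), against 0.491% of all tested genes, with 13 higher in lc/fas (0.355% of all) and 3 lower (0.136%). The 12 members called in both made up 85.7% of the first list and 75.0% of the second, and all 14 and all 16 had the same sign in the other background. With the lc allele averaged over both backgrounds, 22 members were called (13.4%), against 0.826% of all tested genes, with 16 higher (0.525% of all) and 6 lower (0.301%). The lc against WT count was 9 (5.49%) without replicate 4, against 0.36% of all tested genes, and 9 when only the lc and WT libraries were fitted, against 0.35%. The median difference over the members was -0.003, against 0.003 over all genes. A low gene can pass the filter through the groups in which it is high. With no filter on low values, 13.4% of members were called for the averaged lc allele, against 0.627% of all tested genes.

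The called members were spread along the ids up to Solyc02g084150 and stopped there. The table holds neither positions nor variants, so how far the donor segment reaches in lc and lc/fas was not checked here, and a difference described as one with the lc allele is one between plants with and without that allele and whatever donor sequence came with it. Among the 63 members before Solyc02g083790, 16 were called for the averaged lc allele (25.4%). Of the 12 from Solyc02g083790 to Solyc02g083940, just before SlWUS, 3 were called (25.0%), and of the 12 after SlWUS up to Solyc02g084150, 3 were called (25.0%). None of the 77 members after Solyc02g084150 was called in either background or in the average. The largest size of their averaged difference was 0.32. The median size of the averaged difference was 0.11 among the 87 members up to Solyc02g084150 and 0.03 among the 77 members after it. Across the first 87 members, the lc minus WT and lc/fas minus fas differences had a Pearson correlation of 0.931, and across the other 77 members of -0.079. Genes are not independent replicates and the border was placed after the values were seen, so these last figures are descriptions.

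**Figure D1:**
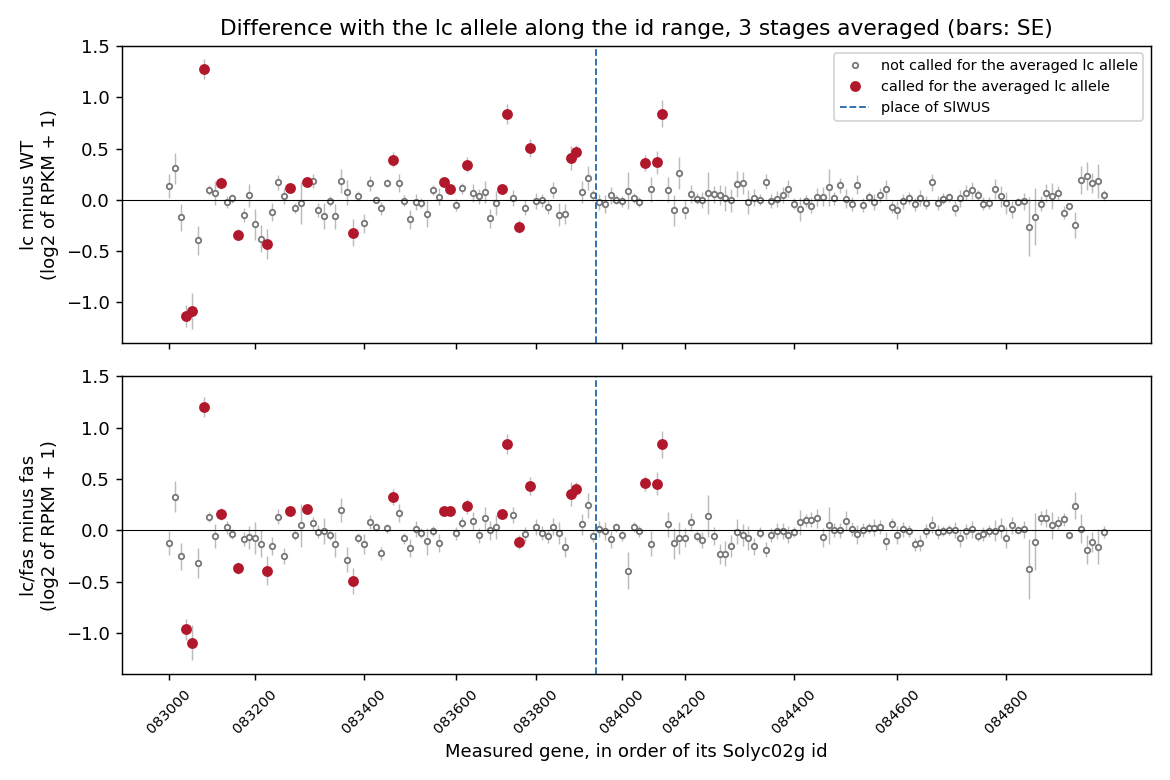
Difference with the lc allele (y axis, log2 of RPKM + 1, bars are SE) for the 164 members in the order of their ids (x axis), as lc minus WT above and lc/fas minus fas below. The 22 filled points are the members called for the averaged lc allele, and all lie between Solyc02g083050 and Solyc02g084150, while the 77 members to the right of the last one scatter close to 0 in both panels.

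Reads of all genotypes were aligned to the cultivated tomato genome. For genes that came from the cultivated donor in lc and lc/fas and from the wild parent in WT and fas, a different amount of transcript and a different share of aligned reads cannot be told apart.

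The largest rise was that of Solyc02g083090, a gene close to absent without the lc allele. Its values at 4dpi were 2.297, 5.25, 2.75 and 3.02 RPKM in lc, against 0, 0.0662, 0 and 0.188 RPKM in WT. In lc/fas they were 1.75, 5.22, 1.77 and 2.17 RPKM, against 0, 0.162, 0 and 0 RPKM in fas. The groups did not overlap at any stage in either background, and the gene was listed at 0 in 7 of 12 WT and 7 of 12 fas libraries. Of these groups at 4dpi only lc and lc/fas reached 1 RPKM. The gene may thus have passed the filter only through libraries in which it was high. With no filter on low values, all 123 named results, this one included, kept their side of the threshold. The averaged difference was 1.24 ± 0.07 (SE, adjusted p = 2.68e-22). It was also the sole member whose lc difference varied between stages (moderated F test, adjusted p = 0.000798, against 0.00972% of all tested genes called in this test), at 0.97 ± 0.12 in the early stage, 1.87 ± 0.12 at 4dpi and 0.87 ± 0.12 at 6dpi. Of the 164 members, 6 had an unadjusted p below 0.05 in that test, a looser threshold for which the share of all tested genes is not given here.

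Solyc02g083050, a low gene a few ids before it, was nearly the mirror image. It was listed at 0 in 11 of 12 lc libraries, with 0.139 RPKM in the other, against 0.291 to 2.16 RPKM (median 1.21) in WT. It was at 0 in 10 of 12 lc/fas libraries (highest 0.387 RPKM), against 0.408 to 2.22 RPKM (median 0.953) in fas. No lc library reached the lowest WT library and no lc/fas library the lowest fas library within a stage, and the averaged difference was -1.05 ± 0.07 (adjusted p = 3.32e-17). Its neighbour Solyc02g083060, a transcript of 158 bases by the length recovered from the table, ran from 0.743 to 4.65 RPKM (median 3.01) in lc, against 5.09 to 12.4 RPKM (median 6.57) in WT. In lc/fas it ran from 1.23 to 5.98 RPKM (median 2.49), against 3.51 to 9.58 RPKM (median 6.67) in fas. The ranges of lc and WT did not meet, those of lc/fas and fas did, and the averaged difference was -1.09 ± 0.12 (adjusted p = 9.46e-10). Both genes are counted from few reads, with medians of 8.0 and 15.0 reads per library.

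Solyc02g083720 rose by a similar amount in both backgrounds, at 0.84 ± 0.09 in lc against WT (adjusted p = 1.34e-09) and 0.84 ± 0.09 in lc/fas against fas (adjusted p = 1.17e-09). At the early stage it had 6.96, 5.25, 7.97 and 6.76 RPKM in lc, against 1.47, 2.07, 1.64 and 2.91 RPKM in WT. In lc/fas it had 6.02, 6.48, 7.73 and 8.00 RPKM, against 2.22, 2.44, 2.303 and 2.75 RPKM in fas. All libraries with the allele lay above all those without it at this stage. By stage, the averaged difference came to 1.30 ± 0.11 early, 0.67 ± 0.11 at 4dpi and 0.55 ± 0.11 at 6dpi. The moderated F test of a difference between stages gave an adjusted p of 0.180.

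Solyc02g084150, the last called member in id order, had 6.50, 5.09, 8.89 and 5.29 RPKM in early lc, against 2.29, 2.23, 3.85 and 2.48 RPKM in early WT. In early lc/fas it had 5.88, 5.93, 5.93 and 5.54 RPKM, against 2.59, 3.75, 2.04 and 3.27 RPKM in early fas. The groups did not overlap at this stage, and over the stages all 12 pairs of lc and WT libraries of the same stage and number were higher in lc. The averaged difference was 0.84 ± 0.09 (adjusted p = 3.79e-10). The 2 called members before it were low. Solyc02g084090 ran from 0.486 to 1.57 RPKM (median 0.855) in lc, against 0.183 to 0.789 RPKM (median 0.486) in WT, with overlapping ranges and an averaged difference of 0.41 ± 0.05 (adjusted p = 6.56e-08). No WT library of Solyc02g084090 reached the 1 RPKM of the filter. Solyc02g084140 had a median of 2.0 reads per library, and its call (0.41 ± 0.08, adjusted p = 0.000887) was lost without replicate 1 (adjusted p = 0.241).

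**Figure D2:**
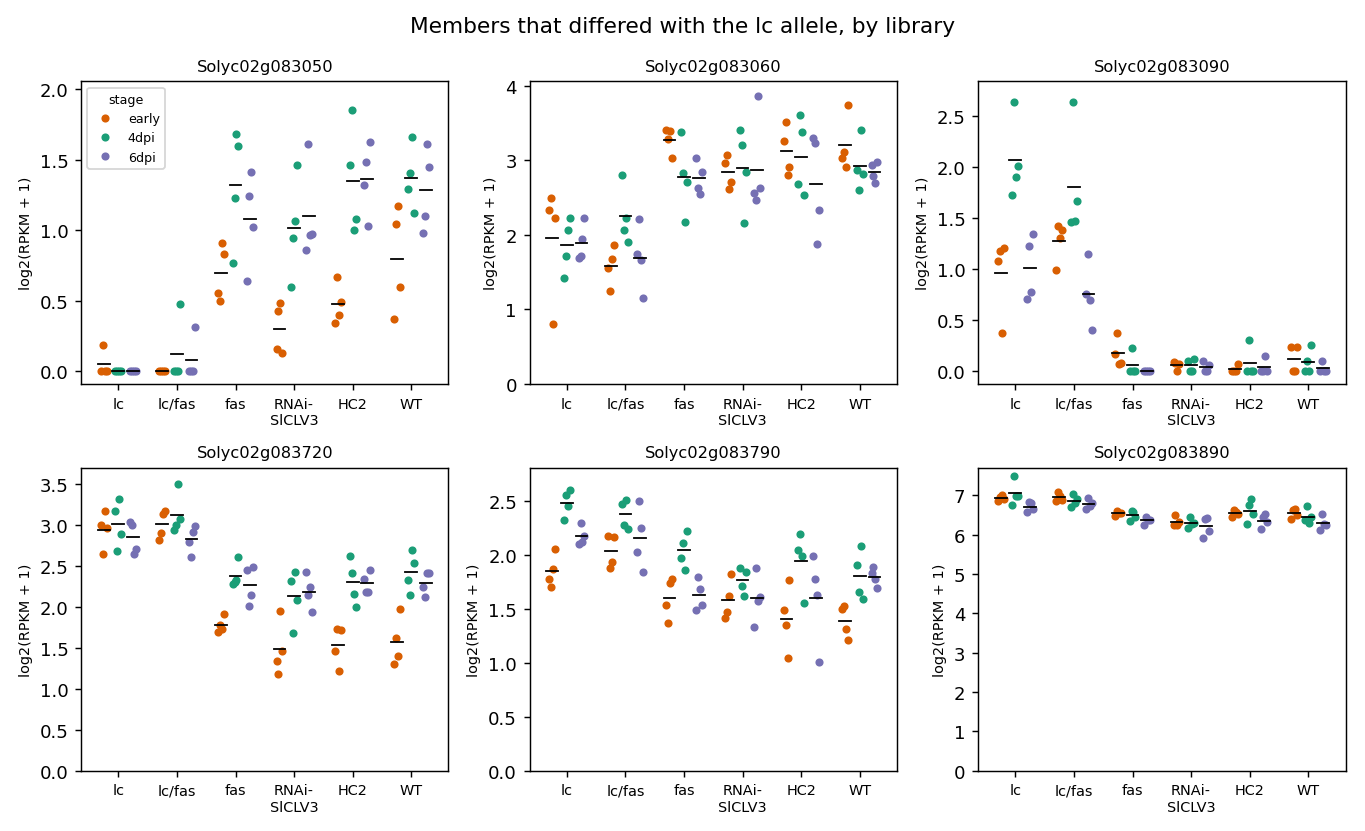
Values of 6 members in every library (y axis, log2 of RPKM + 1) by genotype (x axis) and stage (colour), with a line at the mean of each group of 4. Solyc02g083050 and Solyc02g083060 are low and the other 4 genes high in lc and lc/fas, set against fas, RNAi-SlCLV3, HC2 and WT, and Solyc02g083090 lies near 0 outside lc and lc/fas.

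Among the nearest neighbours of SlWUS, 3 members were called, all higher with the allele. Solyc02g083790, which the study pairs with an Arabidopsis gene of the thaumatin family of pathogenesis-related proteins, ran from 2.26 to 5.07 RPKM (median 3.43) in lc, against 1.32 to 3.23 RPKM (median 2.18) in WT. In lc/fas it ran from 2.59 to 4.69 RPKM (median 3.62), against 1.59 to 3.67 RPKM (median 2.38) in fas. Ranges over all stages overlapped, but within each stage the groups did not, and the averaged difference was 0.47 ± 0.06 (adjusted p = 5.32e-08). The abundant gene Solyc02g083890 ran from 93.6 to 179 RPKM (median 117) in lc, against 68.2 to 104 RPKM (median 85.0) in WT, and from 98.9 to 136 RPKM (median 116) in lc/fas, against 75.3 to 96.3 RPKM (median 87.3) in fas. The lc/fas and fas ranges did not meet at all, and the averaged difference was 0.43 ± 0.05 (adjusted p = 1.64e-10).

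Solyc02g083880, a homolog of Arabidopsis GASA genes that respond to gibberellin, ran from 127 to 416 RPKM (median 220) in lc, against 107 to 363 RPKM (median 161) in WT. In lc/fas it ran from 133 to 428 RPKM (median 229), against 113 to 302 RPKM (median 166) in fas. The ranges overlapped widely, and 11 of 12 pairs of lc and WT libraries were higher in lc. The averaged difference was 0.38 ± 0.08 (adjusted p = 0.00427, and 0.0832 without replicate 4), and neither background was called on its own (adjusted p = 0.136 in lc against WT and 0.383 in lc/fas against fas).

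The other genes beside SlWUS gave no call. Of the 17 members from Solyc02g083790 to Solyc02g084000, 14 were not called for the averaged lc allele. The 8 closest to SlWUS, from Solyc02g083900 to Solyc02g084000, had averaged differences from -0.03 to 0.23. The highest of these was Solyc02g083930, at 0.23 ± 0.08 (adjusted p = 0.473), with 0 to 1.12 RPKM (median 0.596) in lc, against 0 to 1.06 RPKM (median 0.171) in WT. Solyc02g083900, a homolog of an Arabidopsis member of the TRA1-like kinase family, ran from 7.48 to 22.0 RPKM (median 17.0) in lc, against 9.72 to 20.2 RPKM (median 16.5) in WT. Its averaged difference was 0.07 ± 0.07 (adjusted p = 1).

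The remaining members before SlWUS were Solyc02g083800 (0.01 ± 0.05), Solyc02g083810 (-0.02 ± 0.05), Solyc02g083820 (-0.06 ± 0.05), Solyc02g083850 (0.07 ± 0.06) and Solyc02g083870 (-0.15 ± 0.07). Solyc02g083940, next to SlWUS in the table, gave -0.01 ± 0.04. After SlWUS came Solyc02g083960 (-0.01 ± 0.05), Solyc02g083970 (-0.02 ± 0.06), Solyc02g083980 (-0.02 ± 0.06), Solyc02g083990 (0.01 ± 0.03) and Solyc02g084000 (-0.03 ± 0.04). SlWUS itself had 2.58 to 67.4 RPKM (median 5.16) in lc, against 2.57 to 44.7 RPKM (median 4.80) in WT. Its averaged lc difference was 0.35 ± 0.11, with an adjusted p of 0.143, or 0.0114 in the fit with the replicate block.

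F3H (Solyc02g083860) encodes flavanone 3-hydroxylase, which adds the hydroxyl group that leads from flavanones to flavonols and anthocyanins, and it lies among these neighbours. It ran from 94.9 to 236 RPKM (median 157) in lc, against 105 to 264 RPKM (median 174) in WT, and from 108 to 241 RPKM (median 163) in lc/fas, against 98.9 to 242 RPKM (median 162) in fas. The ranges coincided and the averaged difference was -0.09 ± 0.08 (adjusted p = 1). None of 10 genes of the flavonoid pathway, F3H included, was called with the lc allele, against 0.826% of all tested genes. At 4dpi against the early stage 7 of the 10 were called higher and 1 lower, where 21.7% of all tested genes were called higher and 45.3% lower. At 6dpi against 4dpi 6 were called higher and none lower, where 26.1% of all were called higher and 11.9% lower. CHS2 was not called at the first step, and the flavonol synthase gene FLS at neither. In RNAi-SlCLV3 against WT 1 of the 10 was called, the chalcone synthase gene CHS2, at 0.44 (adjusted p = 0.00958). There 12.9% of all tested genes were called, 7.9% higher and 4.97% lower.

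Farther before SlWUS, 6 further named members rose and 1 fell with the allele, all by less than 0.4. Solyc02g083290, a homolog of the Arabidopsis protein kinase STY17, which acts on proteins bound for the chloroplast, ran from 17.9 to 24.3 RPKM (median 20.7) in lc, against 16.1 to 22.2 RPKM (median 18.2) in WT, an averaged difference of 0.19 ± 0.03 (adjusted p = 5.05e-06). Solyc02g083460, a homolog of an aspartyl protease, ran from 3.68 to 5.58 RPKM (median 4.80) in lc, against 2.40 to 5.13 RPKM (median 3.27) in WT, a difference of 0.36 ± 0.05 (adjusted p = 2.83e-06). The ranges of both genes overlapped, with Solyc02g083290 higher in lc in 10 of 12 pairs with WT and Solyc02g083460 in 11 of 12.

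Solyc02g083580 was among the more abundant members, with 105 to 123 RPKM (median 116) in lc, against 94.2 to 120 RPKM (median 99.5) in WT, and 106 to 139 RPKM (median 115) in lc/fas, against 91.0 to 113 RPKM (median 103) in fas. All 12 pairs of lc and WT libraries were higher in lc, and the averaged difference was 0.18 ± 0.02 (adjusted p = 9.45e-08). Smaller or less steady rises were those of Solyc02g083590 (0.15 ± 0.02, adjusted p = 1.43e-05), Solyc02g083620 (0.29 ± 0.05, adjusted p = 0.0003) and Solyc02g083710 (0.14 ± 0.03, adjusted p = 0.00149). The call of Solyc02g083620 was lost without replicate 1 and that of Solyc02g083710 when any of replicates 1, 3 and 4 was left out.

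The fall was that of Solyc02g083170, with 8.23 to 12.3 RPKM (median 10.4) in lc, against 11.8 to 16.6 RPKM (median 13.0) in WT, and 9.40 to 12.1 RPKM (median 10.5) in lc/fas, against 11.6 to 16.2 RPKM (median 14.3) in fas. The ranges met only at their edges, all 12 pairs of lc and WT libraries were lower in lc, and the averaged difference was -0.35 ± 0.04 (adjusted p = 1.11e-09). The other 5 called members lay between Solyc02g083130 and Solyc02g083760, with differences from -0.41 to 0.16 and adjusted p-values from 0.00536 to 0.0430. Each of the 5 lost its call when at least 1 replicate number was left out, among them Solyc02g083760, another thaumatin homolog (-0.19 ± 0.05, adjusted p = 0.0264), which lost it each time.

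The fas allele alone moved no member past the threshold. No member was called in fas against WT with limma, against 0.0826% of all tested genes, and 17 members had an unadjusted p below 0.05. No member was called either in lc/fas against lc (0.238% of all tested genes), where 11 had an unadjusted p below 0.05. In the test of whether the lc difference depended on the background, no member was called in limma (0.0292% of all tested genes called), and 8 had an unadjusted p below 0.05. The share of all tested genes at an unadjusted p below 0.05 is not given here, so the 17, 11 and 8 cannot be set against it.

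In RNAi-SlCLV3, members changed about as often as genes elsewhere. Against WT, 22 members were called (13.4%), against 12.9% of all tested genes, with 13 higher (7.9% of all) and 9 lower (4.97%), shares close to those of all genes. The count was 14 (8.54%) without replicate 1, against 7.59% of all tested genes, and 12 (7.32%) without replicate 2, against 7.14%. Under median-of-ratios scaling 9 members were higher (5.49%, against 6.32% of all) and 16 lower (9.76%, against 6.88% of all). After quantile normalization 8 were higher (4.88%, against 5.9% of all) and 16 lower (9.76%, against 7.46% of all). SlWUS rose in RNAi-SlCLV3 by 1.00 ± 0.15 (adjusted p = 8.18e-07). No member was called in limma for a response that varied between stages (0.379% of all tested genes called). At an unadjusted p below 0.05 there were 14 members, and the share of all tested genes at that threshold is not given here.

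The leading rise was that of Solyc02g084570, a homolog of Arabidopsis FAH1, the cytochrome P450 ferulate 5-hydroxylase that makes syringyl lignin units. At 4dpi it had 2.02, 1.90, 1.91 and 1.66 RPKM in RNAi-SlCLV3, against 0.594, 0.569, 0.396 and 0.471 RPKM in WT. At 6dpi it had 1.65, 1.25, 1.31 and 1.19 RPKM in RNAi-SlCLV3, against 0.634, 0.599, 0.556 and 0.247 RPKM in WT. The groups did not overlap at either stage, nor at the early stage, and the difference over stages was 0.75 ± 0.07 (adjusted p = 4.10e-13).

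Solyc02g084950, a homolog of a SABATH methyltransferase, had 18.8, 30.0, 29.1 and 25.6 RPKM at 4dpi in RNAi-SlCLV3, against 8.72, 8.84, 16.5 and 10.2 RPKM in WT. At 6dpi the groups overlapped, with 40.8 to 62.0 RPKM in RNAi-SlCLV3 and 43.0 to 57.1 RPKM in WT, and the difference over stages was 0.70 ± 0.14 (adjusted p = 0.000247). Solyc02g084410 had 8.71, 4.75, 4.85 and 5.07 RPKM at the early stage in RNAi-SlCLV3, against 2.04, 0.956, 2.26 and 1.97 RPKM in WT. All 4 RNAi-SlCLV3 libraries were above WT at that stage, and the difference over stages was 0.60 ± 0.12 (adjusted p = 0.000231). The peroxidase homolog Solyc02g084790, of a family that cross-links cell wall polymers, had 39.5, 34.7, 36.2 and 36.2 RPKM at the early stage in RNAi-SlCLV3, against 30.2, 24.8, 23.8 and 24.9 RPKM in WT, without overlap, and a difference over stages of 0.52 ± 0.10 (adjusted p = 8.60e-05).

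Among the falls, Solyc02g084150 was lower in RNAi-SlCLV3 (-0.70 ± 0.13 over stages, adjusted p = 6.66e-05), with 0.602, 1.36, 0.916 and 0.429 RPKM at the early stage, against 2.29, 2.23, 3.85 and 2.48 RPKM in WT. The groups stood apart at this stage and overlapped at 6dpi. Solyc02g083570 ran from 2.76 to 6.66 RPKM (median 4.42) in RNAi-SlCLV3, against 3.80 to 8.14 RPKM (median 6.88) in WT, a difference of -0.46 ± 0.09 (adjusted p = 6.56e-05). Solyc02g084710, a homolog of the small redox protein thioredoxin h1, ran from 33.3 to 71.2 RPKM (median 53.3) in RNAi-SlCLV3, against 43.0 to 91.4 RPKM (median 63.8) in WT. Ranges overlapped and the difference was -0.33 ± 0.08 (adjusted p = 0.00167, and 0.0620 without replicate 2).

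The largest fall in size, that of Solyc02g084840 (-0.90 ± 0.29, adjusted p = 0.0306), rested on a gene of wide spread, with 5.85 to 40.9 RPKM (median 19.6) in RNAi-SlCLV3, against 10.4 to 125 RPKM (median 33.9) in WT, and it was lost without any of replicates 1, 2 and 3. Solyc02g084210, a homolog of GMD1, which makes the precursor of GDP-fucose, gave -0.28 ± 0.09 (adjusted p = 0.0271, lost without replicate 2 or 4). Solyc02g083780, a pentatricopeptide repeat homolog, gave 0.23 ± 0.07 (adjusted p = 0.0289) and lost its call without any 1 of the 4 replicate numbers.

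HC2 differed from fas in 3 members (1.83%), against 3.81% of all tested genes. The count was 1 (0.61%) without replicate 1 or replicate 4, against 2.71% and 2.32% of all tested genes, and 5 (3.05%) without replicate 2, against 2.65%. Solyc02g084790 had 65.1, 49.97, 41.9 and 46.5 RPKM at the early stage in HC2, against 23.1, 29.2, 21.5 and 26.1 RPKM in fas. The groups did not overlap at this stage and did at 4dpi and 6dpi, and the difference over stages was 0.47 ± 0.10 (adjusted p = 0.000727). At the early stage alone, it was 0.99 ± 0.17 (adjusted p = 5.59e-05), and that of the next peroxidase homolog, Solyc02g084800, was 0.71 ± 0.18 (adjusted p = 0.0241), the 2 members called there, against 1.39% of all tested genes.

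Solyc02g084150 ran from 0.488 to 1.80 RPKM (median 1.27) in HC2, against 1.30 to 3.75 RPKM (median 2.25) in fas, a difference of -0.58 ± 0.13 (adjusted p = 0.0022), which was not called without replicate 1 or replicate 4 (highest adjusted p = 0.0944). Solyc02g084680, a homolog of the Arabidopsis transcription factor STY1 of the SHI family, which acts in style and stigma formation, ran from 19.3 to 33.5 RPKM (median 21.7) in HC2, against 15.8 to 34.8 RPKM (median 18.5) in fas. The ranges overlapped, and the difference of 0.24 ± 0.07 (adjusted p = 0.0264) was not called without replicate 1, 3 or 4.

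Across the genotypes Solyc02g084150 was highest with the lc allele and lowest with a transgene. Its medians over 12 libraries were 5.09 RPKM in lc and 5.18 RPKM in lc/fas, 0.842 RPKM in RNAi-SlCLV3 and 1.27 RPKM in HC2, with 2.25 RPKM in fas and 2.26 RPKM in WT. The ranges of RNAi-SlCLV3 (0.313 to 2.50 RPKM) and HC2 (0.488 to 1.80 RPKM) overlapped, as did those of fas and WT.

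**Figure D3:**
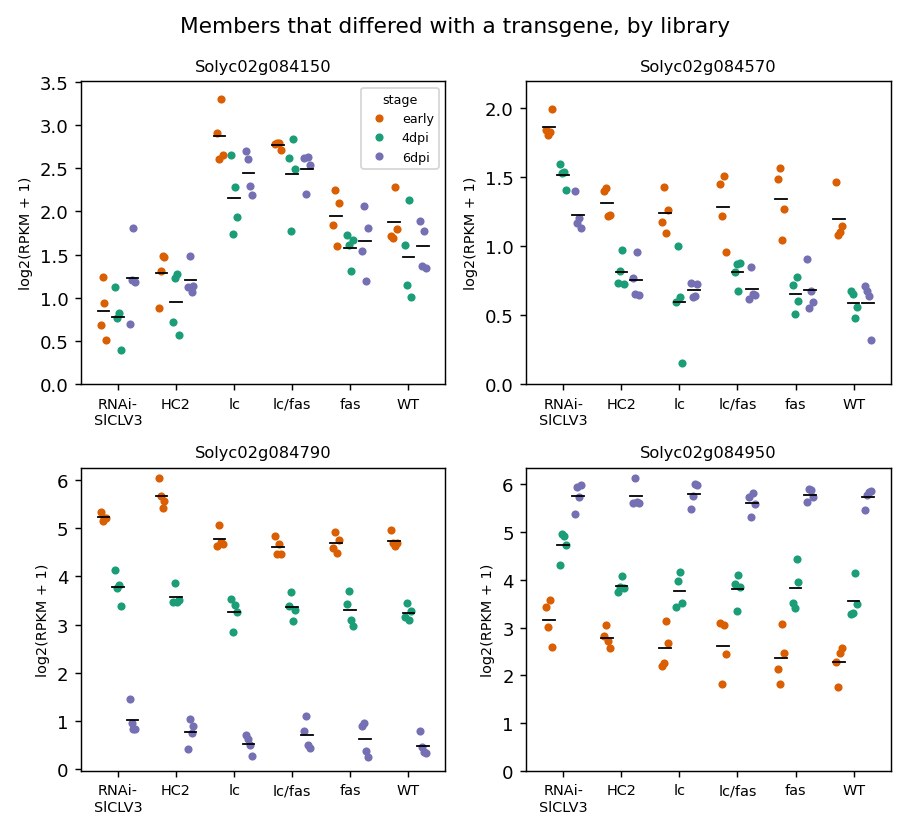
Values of 4 members in every library (y axis, log2 of RPKM + 1) by genotype (x axis) and stage (colour), with a line at the mean of each group of 4. Solyc02g084150 is lowest in RNAi-SlCLV3 and HC2 and highest in lc and lc/fas, Solyc02g084570 and Solyc02g084950 stand higher in RNAi-SlCLV3, and Solyc02g084790 is higher at the early stage in RNAi-SlCLV3 and HC2.

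More members were called between stages than between genotypes, as among all genes. A stage step set 24 libraries against 24, and a contrast of 2 genotypes 12 against 12, so the counts also differ in the number of libraries behind them. At 4dpi against the early stage 114 members were called (69.5%), against 66.9% of all tested genes, with 41 higher (21.7% of all) and 73 lower (45.3%). At 6dpi against 4dpi 72 were called (43.9%), against 38% of all tested genes, with 49 higher (26.1% of all) and 23 lower (11.9%). In all, 57 members were called at both steps (34.8%, against 27.7% of all tested genes) and 35 at neither (21.3%, against 22.8%). The split depended on scaling, for the members as for all genes. At the first step it was 47 higher and 50 lower under median-of-ratios scaling (26.9% and 28.8% of all genes). At the second step it was 42 higher and 33 lower under that scaling (21.1% and 17.4% of all) and 28 higher and 44 lower after quantile normalization (17% and 24.1% of all).

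Cell wall peroxidase homologs gave the steepest declines. Solyc02g084790 ran from 21.0 to 65.1 RPKM at the early stage (median 26.8), from 6.24 to 16.6 RPKM at 4dpi (median 9.73) and from 0.198 to 1.74 RPKM (median 0.663) at 6dpi, so no stage overlapped another over 24 libraries each. Its steps were -1.53 ± 0.07 and -2.73 ± 0.07 (adjusted p = 3.95e-28 and 1.18e-39). Solyc02g084800, which the study pairs with the same Arabidopsis peroxidase gene, so that reads may be shared between the copies, ran from 30.5 to 79.2 RPKM (median 46.9) early, from 3.39 to 13.2 RPKM (median 7.53) at 4dpi and from 0.202 to 1.43 RPKM (median 0.636) at 6dpi.

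The adjacent id Solyc02g084780 declined as well, with medians of 7.56 RPKM early, 2.54 RPKM at 4dpi and 0.262 RPKM at 6dpi (steps of -1.33 ± 0.07 and -1.47 ± 0.07). Solyc02g083870, the id after F3H, had 1.71 to 4.77 RPKM early, 0 to 1.38 RPKM at 4dpi and 0 to 1.27 RPKM at 6dpi. Its first step was -1.44 ± 0.07 (adjusted p = 6.16e-27), with no overlap between the early stage and 4dpi.

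The rises were led by Solyc02g084410, with 0.956 to 8.71 RPKM (median 2.63) early, 9.58 to 30.7 RPKM (median 17.5) at 4dpi and 17.0 to 31.3 RPKM (median 22.5) at 6dpi. The early libraries lay below all later ones, and the first step was 2.28 ± 0.08 (adjusted p = 2.90e-32). The SABATH homolog Solyc02g084950 ran from 2.38 to 10.997 RPKM early, from 8.72 to 30.0 RPKM at 4dpi and from 39.0 to 69.4 RPKM at 6dpi, with steps of 1.30 ± 0.10 and 1.82 ± 0.10. Solyc02g083190 had medians of 2.50 RPKM early, 7.96 RPKM at 4dpi and 19.1 RPKM at 6dpi, and Solyc02g084980 of 0.722, 2.52 and 7.15 RPKM in the same order.

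Solyc02g084670, a methyltransferase homolog, was at most 0.301 RPKM early and reached 2.16 to 4.42 RPKM at 6dpi, with steps of 0.87 ± 0.06 and 1.05 ± 0.06. Solyc02g084840 varied most among these genes, with medians of 27.5 RPKM early, 38.2 RPKM at 4dpi and 21.1 RPKM at 6dpi. Its steps were 0.60 ± 0.20 (adjusted p = 0.00918, lost without replicate 2) and -1.08 ± 0.20 (adjusted p = 1.91e-05).

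**Figure D4:**
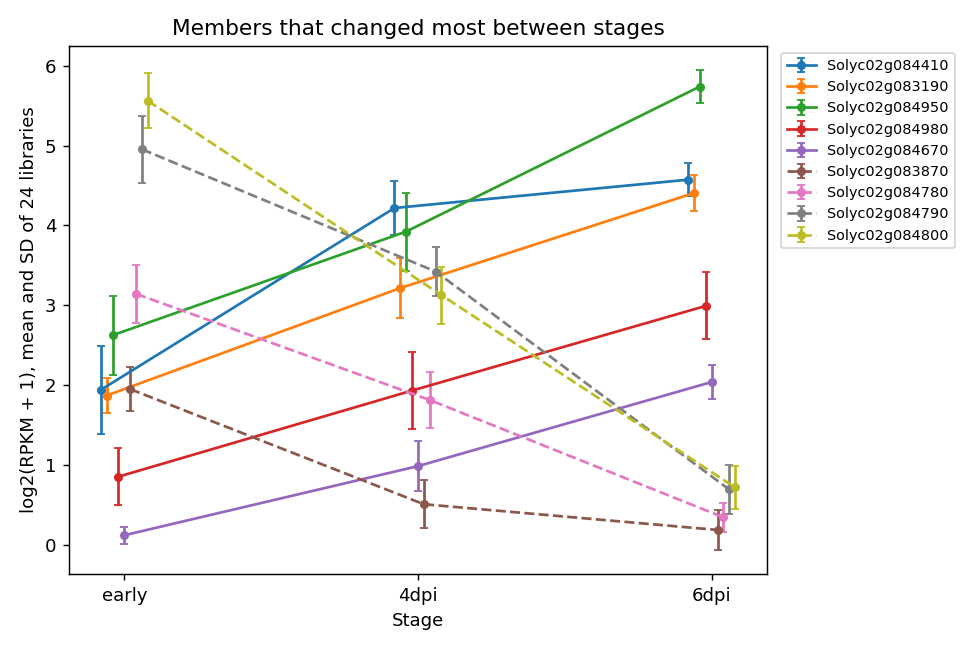
Mean of log2(RPKM + 1) over the 24 libraries of a stage (y axis, bars are SD) at the early stage, 4dpi and 6dpi (x axis) for 5 members that rose (solid lines) and 4 that fell (dashed lines). Solyc02g084800 and Solyc02g084790 go down at both steps to below 2 RPKM in every library at 6dpi, and Solyc02g084950 and Solyc02g083190 go up at both.

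Genes with known homologs followed several courses. Of the transcription factors, the AREB3 homolog Solyc02g083520, of a bZIP family in abscisic acid responses, fell at 4dpi by 0.51 on the log2 scale (SE 0.06, adjusted p = 3.36e-10), with medians of 73.1 RPKM early, 51.6 RPKM at 4dpi and 46.2 RPKM at 6dpi. The STY1 homolog Solyc02g084680 had medians of 28.0, 19.6 and 18.8 RPKM in the same order (first step -0.43 ± 0.05, adjusted p = 1.66e-11). The BBX19 homolog Solyc02g084430, a B-box protein known from the control of flowering time in Arabidopsis, had medians of 28.1, 35.4 and 40.0 RPKM and rose at both steps (0.30 ± 0.05 and 0.22 ± 0.05).

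The ROT3 homolog Solyc02g084740, a cytochrome P450 of brassinosteroid synthesis, peaked at 4dpi, with medians of 5.28 RPKM early, 6.58 RPKM at 4dpi and 3.32 RPKM at 6dpi. The 4dpi and 6dpi ranges did not meet (5.47 to 14.3 RPKM at 4dpi and 2.46 to 4.34 RPKM at 6dpi), and the second step was -0.89 ± 0.06 (adjusted p = 9.17e-20). F3H had medians of 124, 159 and 187 RPKM in stage order and rose at both steps (0.36 ± 0.08 and 0.20 ± 0.08, adjusted p = 6.75e-05 and 0.0372), the second not called under median-of-ratios scaling (adjusted p = 0.0820). The GASA homolog Solyc02g083880 went the other way, with medians of 287, 170 and 130 RPKM and steps of -0.71 ± 0.08 and -0.43 ± 0.08.

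The FAH1 homolog Solyc02g084570 had medians of 1.53, 0.660 and 0.5995 RPKM (first step -0.55 ± 0.05, adjusted p = 4.78e-15). The receptor kinase homolog Solyc02g084600, related to GSO1, which helps to seal the embryo surface and the root endodermis in Arabidopsis, had medians of 1.59, 3.16 and 3.64 RPKM and rose at the first step (0.75 ± 0.06, adjusted p = 3.39e-16). The thioredoxin homolog Solyc02g084710 had medians of 47.1, 65.6 and 62.2 RPKM and rose at the first step (0.53 ± 0.05, adjusted p = 1.17e-12). The linker histone homolog Solyc02g084240 had medians of 309, 331 and 340 RPKM with no call at either step (0.07 ± 0.15 and -0.04 ± 0.15), and its libraries ran from 148 to 666 RPKM.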

How the data were processed

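The 72 mRNA libraries covered 6 genotypes at 3 stages (18 groups, 4 replicates per group). The authors made strand-specific libraries, placed the single-end reads on the cultivated tomato genome using TopHat2 with Bowtie2 (no version is given in the sources used here), counted sense-strand reads on the ITAG 2.3 annotation, and deposited RPKM values for 34727 genes. Reads per library and transcript lengths were recovered from the steps of low RPKM values, at a tolerance of 0.01 reads. They were used to describe depth and length, and to choose the libraries below 10 M reads that an alternative fit left out. No 2 libraries held identical values.

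A pseudocount of 1 was added before log2 transformation, and the 20577 genes that reached 1 RPKM in 4 or more libraries were tested. The main model, fitted in limma 3.58.1 (trend, R 4.3.3), held 18 group means and no other term, contrasts were averaged over stages, and two-sided p-values received a Benjamini-Hochberg adjustment across the tested genes. Calls were made at an adjusted p below 0.05. The fit was tested on simulated data with known changes. Figures used Python 3.11.15 with matplotlib 3.10.9.

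Same-numbered libraries of a stage deviated together (mean correlation of residuals 0.306, and -0.101 between other numbers). Residuals cancel out over the replicates of a group, so the second value largely follows from the first and is no separate baseline. All 12 pairs of lc and WT and all 12 of fas and WT lay above 0.1, as did all 24 pairs at each stage step. For lc/fas and fas, RNAi-SlCLV3 and WT, and HC2 and fas, 11 of 12 did. The remaining pair of each was still positive, at 0.0724, 0.074 and 0.0513 in that order. The line at 0.1 was a chosen one, so it does not separate paired from unpaired comparisons. The main model has no term for the number, so its p-values leave this pairing out, while the fit with the replicate block takes it in. In lc against WT 8.54% of members were called in the main model and 11.6% with the block. The labels give only the number, and the sources used here do not say that a number marks 1 shared week of collection.

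The named genes were, for the lc allele, the 16 called members with the smallest p and those from Solyc02g083790 to Solyc02g084000. For RNAi-SlCLV3, HC2 and each stage step they were the 4 largest rises and falls among called members with a group mean of at least 2 RPKM. Members with a homolog given by the study were named where a role is described. The members and lists were chosen with earlier results of these data known. Alternatives were another pseudocount, other filters, 2 other scalings, a replicate block, fits of the compared groups alone, and fits without each replicate number or without the 7 libraries below 10 M reads.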

Additional observations from a re-analysis of the deposited data

Results flagged for a closer look

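Of 96 groups of 4 libraries looked at for the 8 members with the smallest p for the lc allele, 10 had a library far from the other 3, where chance gives about 1 in 20. In 5 of the 10 the other 3 libraries were listed at 0, so that any reading would stand apart and that rate does not apply. In Solyc02g083050 a single library was above 0, at 0.139 RPKM in early lc (replicate 2), 0.387 RPKM in lc/fas at 4dpi (replicate 4) and 0.239 RPKM in lc/fas at 6dpi (replicate 4). In Solyc02g083090 the same held at 0.064 RPKM in WT at 6dpi (replicate 2) and 0.162 RPKM in fas at 4dpi (replicate 2), and lc/fas at 4dpi had 5.22 RPKM in replicate 2, against 1.75 to 2.17 RPKM in the others. The remaining cases were 5.09 RPKM of Solyc02g083720 in fas at 4dpi (replicate 4, others 3.87 to 4.03 RPKM), 5.54 RPKM of Solyc02g084150 in early lc/fas (replicate 4, others 5.88 to 5.93 RPKM), and early WT replicate 3, the library of 2.93 M reads, with 3.85 RPKM of Solyc02g084150 (others 2.23 to 2.48 RPKM) and 16.6 RPKM of Solyc02g083170 (others 12.2 to 12.8 RPKM).

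The lc difference of Solyc02g083090 varied between stages (moderated F test in limma, adjusted p = 0.000798), highest at 4dpi.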

How the results depend on the processing

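With the replicate block, calls grew in number among all tested genes as among the members, except for fas against WT, where no member was called. It called 19 members in lc against WT (11.6%, against 0.919% of all tested genes), 20 in lc/fas against fas (12.2%, against 0.836%), 25 for the averaged lc allele (15.2%, against 1.27%), 38 in RNAi-SlCLV3 against WT (23.2%, against 21.9%), 11 in HC2 against fas (6.71%, against 7.12%) and 0 in fas against WT (against 0.292% of all), and it ended no call of a named gene. With only the lc and WT libraries fitted, 9 members were called in that comparison (5.49%, against 0.35% of all). Leaving out 1 replicate number at a time gave 9 to 13 members in lc against WT, 11 to 14 in lc/fas against fas, 15 to 19 for the averaged lc allele, 12 to 18 in RNAi-SlCLV3 against WT, 1 to 5 in HC2 against fas, and 100 to 110 and 50 to 72 at the stage steps. In the same order, these fits called 0.36 to 0.452%, 0.335 to 0.423%, 0.578 to 0.758%, 7.14 to 9.78%, 2.32 to 3.15%, 59.1 to 64.2% and 27.2 to 36.4% of all tested genes. The causes were not tested. Of the 22 members called for the averaged lc allele, 13 kept their call in each of these fits and 9 lost it in at least 1. Over 123 named results and their alternatives, 1332 of 1426 values kept their side of the threshold, 82 lost it, 12 gained it and 0 changed direction with a call. Depth limits the 24 members with fewer than 20 reads in the median library, where a difference that was not called may have been too small to detect.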
